A study of Homo sapiens with 12 samples.

Results

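The cells compared here were HK-2 cells given Fk for 12 h and HK-2 cells given its control vehicle for the same time, with 3 arrays on each side. HK-2 is an established line of epithelial cells from the proximal tubule of the human kidney, immortalized for growth in culture. All 12 cultures of the study grew in a mix of DMEM and Ham's F12 with 5 mM glucose, 10 ng/ml epidermal growth factor (EGF), hydrocortisone, insulin, transferrin and selenite, and were seeded 24 h before treatment. The groups differ only in Fk or vehicle and in the time of 12 h or 48 h. The labels do not spell out the name Fk, and its dose was not used here. The 6 arrays labelled 12 h, out of 12, entered the comparison, and every gene was a member: of 19775 genes, the 10784 with log2 values of 4 or more on 3 arrays or more were tested. Each gene is represented by the probe set with the highest mean among those naming 1 gene, and other probe sets are given only where they reached 4 on a 12 h array. Values are on the log2 scale, so a difference of 1 is a doubling of signal. Replicates are described as biological in the labels. These do not say how the cultures were kept apart, so the tests measure the spread between these arrays.

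Several gene families described below have well-known roles in tubular cells. When amino acids run short or proteins misfold, the integrated stress response raises the factor ATF4, which switches on genes for amino acid synthesis and uptake. The alpha-arrestins TXNIP and ARRDC4 restrain glucose uptake and are switched on by sugar-sensing factors that bind paired E-boxes. Interferon-stimulated genes carry out antiviral defence and answer to STAT and IRF factors, while ribosome biogenesis is the production of ribosomes in the nucleolus, which follows growth signals such as MYC and mTOR.

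Promoter windows of 5 genes that read higher with Fk are shown because each holds a motif known for its group of genes. They cover 250 bases before and 50 bases after each gene's start, 300 in all, in RefSeq's GRCh38.p14, and capitals mark the motif on either strand. For IFI44, DDX60 and HERC5 this is the core of the interferon-stimulated response element, a pair of TTTC blocks with 2 bases of any kind between them, or GAAA on the other strand. This core overlaps itself in HERC5. For CHAC1 it is the amino acid response core TGATGNAAN or NTTNCATCA, and for ARRDC4 the E-box CACGTG.
IFI44, chr1:78649539-78649838 on the plus strand: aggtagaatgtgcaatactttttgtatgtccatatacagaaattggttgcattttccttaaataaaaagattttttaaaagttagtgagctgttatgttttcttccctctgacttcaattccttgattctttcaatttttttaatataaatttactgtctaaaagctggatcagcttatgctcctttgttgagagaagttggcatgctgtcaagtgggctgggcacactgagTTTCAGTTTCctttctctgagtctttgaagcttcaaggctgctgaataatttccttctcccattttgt
DDX60, chr4:168318703-168319002 on the minus strand: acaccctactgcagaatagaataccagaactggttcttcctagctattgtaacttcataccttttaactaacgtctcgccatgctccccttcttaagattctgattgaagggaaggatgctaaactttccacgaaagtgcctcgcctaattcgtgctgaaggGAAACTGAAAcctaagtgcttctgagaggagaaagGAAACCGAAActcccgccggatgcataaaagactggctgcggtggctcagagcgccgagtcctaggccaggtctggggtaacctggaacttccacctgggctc
HERC5, chr4:88456869-88457168 on the plus strand: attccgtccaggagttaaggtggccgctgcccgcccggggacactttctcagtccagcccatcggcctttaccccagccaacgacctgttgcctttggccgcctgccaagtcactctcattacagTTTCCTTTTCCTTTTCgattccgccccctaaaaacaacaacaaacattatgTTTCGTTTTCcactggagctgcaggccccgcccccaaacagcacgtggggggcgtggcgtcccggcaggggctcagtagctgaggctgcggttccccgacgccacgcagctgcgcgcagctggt
CHAC1, chr15:40953221-40953520 on the plus strand: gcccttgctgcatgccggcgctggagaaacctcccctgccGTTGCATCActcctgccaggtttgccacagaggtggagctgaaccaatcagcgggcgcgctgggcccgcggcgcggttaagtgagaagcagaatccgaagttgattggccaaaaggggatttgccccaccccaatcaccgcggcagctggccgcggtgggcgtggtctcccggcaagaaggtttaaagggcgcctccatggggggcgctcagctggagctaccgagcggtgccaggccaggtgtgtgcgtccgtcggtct
ARRDC4, chr15:97960453-97960752 on the plus strand: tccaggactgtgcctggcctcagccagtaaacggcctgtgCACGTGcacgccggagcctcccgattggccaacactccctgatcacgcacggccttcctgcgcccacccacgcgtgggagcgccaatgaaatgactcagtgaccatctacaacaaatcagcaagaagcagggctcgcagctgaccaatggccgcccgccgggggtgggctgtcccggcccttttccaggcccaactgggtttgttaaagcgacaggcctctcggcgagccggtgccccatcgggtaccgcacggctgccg

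The interferon core was in 18 of the 28 windows used for the 32 interferon-stimulated genes tested (64.3%), against 3.65% of all 27305 windows. DDX60 held 2 matches and HERC5 3. The amino acid core was in 3 of 18 windows of the integrated stress response list (16.7%), those of ATF3, CHAC1 and NARS1, against 3.67% of all windows. An E-box was in 3 of 9 windows of the glucose-sensing and alpha-arrestin list, those of ARRDC4, MLX and G6PC3, against 7.43% of all windows. A pair of exact CACGTG boxes with 5 bases between them was in 0 of these 9 and in 2 of all 27305. Pairs with other letters in either box were not searched for, so this 0 does not show that paired E-boxes are absent. Such matches describe the sequence and do not show that a factor binds there.

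Among the 12 h arrays, Fk replicate 3 stood away from the other 5. Across the 10784 genes it correlated with them at 0.942 to 0.949, and they correlated with each other at 0.989 to 0.994. The median SD of a gene was 0.242 over the 3 Fk arrays, 0.0879 over Fk replicates 1 and 2 and 0.125 over the 3 control arrays. The 5′ probe set for 28S ribosomal RNA read 14.38 on this array and 8.96 to 9.71 on the others, and the hybridization spike-ins averaged 9.84 against 8.76 to 9.11. The poly-A spike-ins, which are added to the RNA before labelling, averaged 8.32 to 8.66 on the Fk arrays and control replicate 1, but 7.44 and 7.61 on control replicates 2 and 3. What part these readings had in the results was not tested, and values are given with and without Fk replicate 3. Of 20 proximal tubule markers, 6 reached a value of 4 on a 12 h array and 4 were tested: DPP4, PAX8, SLC4A4 and CDH6. The transport genes SLC34A1, LRP2, CUBN, SLC5A2 and SLC22A6 stayed under 4 on every 12 h array, and so did all 11 leukocyte markers.

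By limma over all 12 arrays, 0 of 10784 genes passed an adjusted p of 0.05 at 12 h (percent called 0), with 724 (6.71%) at an unadjusted p under 0.05. Without Fk replicate 3, 3 genes passed and all 3 were higher with Fk (0.0278%), with 849 (7.87%) at an unadjusted p under 0.05, of which 310 (2.87%) were lower. With weights that count each array by its closeness to its group, 156 genes passed (1.45%), 102 higher (0.946%) and 54 lower (0.501%). In this weighted fit 2068 of 10784 genes had an unadjusted p under 0.05, and the weights were estimated from the same arrays that it tests. These weights gave Fk replicate 3 0.121, against 1.45 to 2.44 for the other 12 h arrays and 0.40 to 3.62 for the 48 h arrays. The 3 Fk arrays all lay above the 3 control arrays for 1069 genes (9.91%) and all below for 700 (6.49%). Below, a gap is the distance between the nearest Fk and control arrays of a gene whose groups do not overlap. It reached 0.5 for 30 genes with Fk above (0.278%) and 8 with Fk below (0.0742%), so these genes were separated on every array, the outlying one included. Just inside this limit lay TLR3 and ANKRD36B, both with a gap of 0.51, and just outside it NIBAN1 (0.495) and SH3TC1 (0.491). Errors given after a log2 fold change are standard errors from limma, which pools the spread of all 4 groups, with 3 Fk and 3 control arrays, or 2 and 3 without Fk replicate 3. Each array averages over a whole culture, so that a change in some cells and a change in all cells cannot be told apart. Where 2 values follow a gene, the first uses all arrays and the second leaves out Fk replicate 3.

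SLC16A14, an orphan member of the monocarboxylate transporter family, had the widest gap. It read 5.64, 5.84 and 9.69 on Fk replicates 1, 2 and 3 and 2.55, 2.92 and 3.01 on control replicates 1, 2 and 3. All Fk arrays were far above the controls, and replicate 3 lay far above the other Fk arrays. The log2 fold change was +4.23 ± 0.83 (adjusted p = 0.575), or +2.91 ± 0.16 without Fk replicate 3 (adjusted p = 0.00015). Its control values lay under 4, and it reached 4 on Fk arrays only, so it passed the filter through the group where it is high. The size of the change rests on a control level not shown to be above background. ARRDC4, an alpha-arrestin, read 4.26, 4.15 and 6.91 with Fk and 2.81, 2.83 and 3.09 with vehicle. Here too the controls were under 4, as were all 48 h arrays, so ARRDC4 entered the test only through the Fk arrays of 12 h. The difference was +2.20 ± 0.57, or +1.29 ± 0.11 without the outlying array (adjusted p = 0.0029). ANKRA2, an ankyrin repeat protein that binds class II histone deacetylases and megalin, read 6.32, 6.46 and 9.01 with Fk and 4.82, 5.05 and 5.15 with vehicle. Its difference was +2.26 ± 0.56, or +1.38 ± 0.16 without that array (adjusted p = 0.0322). These were the 3 genes called without Fk replicate 3, and in each the outlying array was the highest. SLC16A14 stayed called when any further array was left out. ARRDC4 was lost without Fk replicate 1 (adjusted p = 0.11) or 2 (adjusted p = 0.0562), and ANKRA2 without any further 12 h array (adjusted p = 0.101 to 0.700) and without Fk replicate 2 or any control array at 48 h (adjusted p = 0.0521 to 0.0968). With 12 h arrays alone SLC16A14 was the gene called, and ARRDC4 and ANKRA2 were not (adjusted p = 0.101 for each).

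The other genes of wide gap included receptors at the cell surface. C5AR1, the receptor for complement fragment C5a, read 5.87, 5.61 and 6.62 with Fk and 3.66, 3.72 and 3.98 with vehicle, and the highest control was under 4. The difference was +2.25 ± 0.51, or +1.96 ± 0.55 without Fk replicate 3. ITGA2, the alpha-2 integrin subunit of a collagen receptor, read 5.87, 5.76 and 5.41 against 4.21, 4.37 and 4.41. For this gene Fk replicate 3 was the lowest of the Fk arrays, and the difference was +1.35 ± 0.31, or +1.48 ± 0.35 without it. A second ITGA2 probe set stayed under 4 at 12 h. IL1R1, the interleukin-1 receptor, read 5.96, 6.18 and 7.28 against 4.86, 5.21 and 4.98, a difference of +1.46 ± 0.35 or +1.05 ± 0.29. The double-stranded RNA sensor gene TLR3 read 5.28, 5.06 and 5.33 against 4.49, 4.56 and 4.03, a difference of +0.86 ± 0.36 or +0.81 ± 0.41. SLC44A2, a choline transporter-like protein, read 8.29, 8.24 and 8.52 against 7.03, 7.20 and 7.56, a difference of +1.09 ± 0.22 or +1.01 ± 0.25. With array weights C5AR1 (adjusted p = 0.0232), ITGA2 (adjusted p = 0.00867), IL1R1 (adjusted p = 0.0244) and SLC44A2 (adjusted p = 0.0244) passed, and TLR3 did not (adjusted p = 0.0998).

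Other genes with a gap of at least 0.5 encode regulators and trafficking proteins. IRF2, a transcription factor of the interferon pathway, read 7.98, 8.16 and 8.40 with Fk and 6.92, 7.16 and 7.24 with vehicle, a difference of +1.08 ± 0.24, or +0.97 ± 0.26 without Fk replicate 3. FRK, a Src-family kinase of epithelia, read 7.49, 7.82 and 7.72 against 6.83, 6.80 and 6.50, and its difference was as large without that array (+0.96 ± 0.17 and +0.94 ± 0.19). FCHO2, which starts clathrin-coated pits, read 7.63, 7.86 and 8.05 against 6.94, 6.90 and 7.07, and PXK, a protein that traffics EGF receptors, read 7.35, 7.46 and 7.37 against 6.46, 6.56 and 6.66. A second, dim FCHO2 probe set gave +0.57, or +0.09 without Fk replicate 3. IRF2, FRK, FCHO2 and PXK passed with array weights (adjusted p = 0.0258, 0.0244, 0.0232 and 0.0243). NHSL1, a relative of the Nance-Horan syndrome protein, read 7.19, 6.95 and 6.99 against 6.21, 5.65 and 6.01. For NHSL1 the chosen probe set gave +1.09, while its 2 other probe sets above 4 gave +0.86 and +0.14. IFI44, ARRDC3, INHBE, CCNG2 and SLC1A4 also had gaps of at least 0.5 and are described with their groups.

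**Figure D1:**
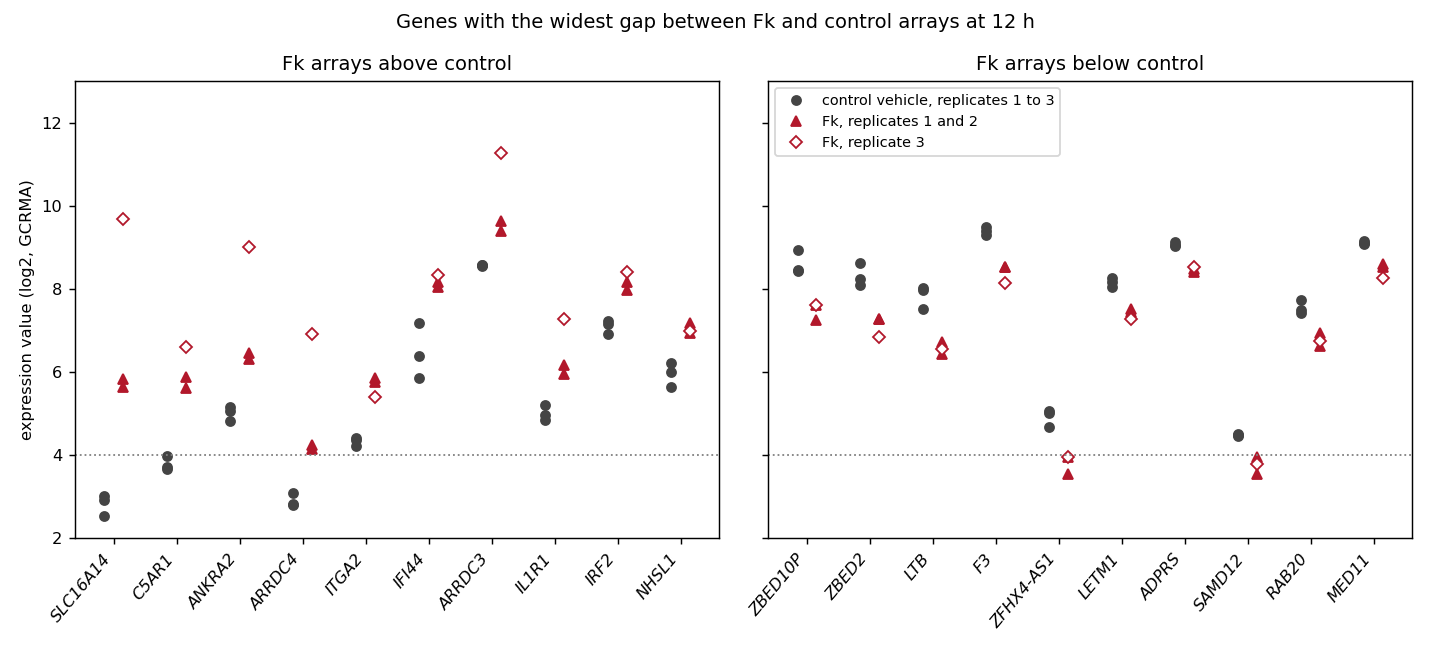
Log2 expression of the 10 genes with the widest gap in each direction between Fk and control arrays at 12 h. Each symbol is 1 array (grey circles: control; red triangles: Fk replicates 1 and 2; open diamonds: Fk replicate 3), and the dotted line is the value of 4 used for testing. For SLC16A14 the Fk arrays read 5.64 to 9.69 and the controls 2.55 to 3.01, and for LTB the Fk arrays lie at 6.43 to 6.72, under all controls.

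In the 10 genes of widest gap with Fk below control, Fk replicate 3 lay within 0.5 of replicate 1 or 2. LTB, which encodes lymphotoxin beta, a ligand of non-canonical NF-kB signalling, read 6.72, 6.43 and 6.56 with Fk and 8.01, 7.51 and 7.98 with vehicle. The 3 Fk arrays lay together under all controls, and the difference was -1.27 ± 0.28, or -1.26 ± 0.33 without Fk replicate 3. F3, tissue factor, which starts blood clotting, read 8.54, 8.54 and 8.13 against 9.39, 9.31 and 9.49, a difference of -0.99 ± 0.45 or -0.86 ± 0.52. ZBED2, a zinc finger gene derived from a transposase, read 7.28, 7.29 and 6.86 against 8.09, 8.25 and 8.62, and ZBED10P, a gene of the same domain family, read 7.26, 7.61 and 7.60 against 8.94, 8.45 and 8.42. Their differences were -1.18 ± 0.30 and -1.11 ± 0.36. LETM1, a protein of the inner mitochondrial membrane that exchanges cations, read 7.53, 7.44 and 7.27 against 8.05, 8.26 and 8.17, and ADPRS, which removes ADP-ribose from serines, read 8.41, 8.48 and 8.53 against 9.04, 9.05 and 9.14. LTB, ZBED2, ZBED10P, LETM1 and ADPRS passed with array weights (adjusted p = 0.0244, 0.0325, 0.0485, 0.0244 and 0.0232) and F3 did not (adjusted p = 0.111). The remaining genes of this set had differences of -1.10 ± 0.54 for ZFHX4-AS1, -0.72 ± 0.36 for SAMD12, -0.79 ± 0.29 for the small GTPase gene RAB20 and -0.64 ± 0.23 for the Mediator subunit gene MED11. ZFHX4-AS1 and SAMD12 read under 4 on every Fk array.

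Array weights called genes whose groups overlapped as well as genes whose groups did not. With Fk replicate 3 left out, the weighted fit still called 160 genes, against 156 with it. Of the 102 genes called higher, 74 had groups that did not overlap, and of the 54 called lower, 39. NRGN, neurogranin, which binds calmodulin, read 5.15, 5.07 and 3.90 with Fk and 3.69, 3.61 and 4.09 with vehicle, so replicate 3 lay within the controls (+1.30 ± 0.15 weighted, adjusted p = 0.00867). TDRKH, a Tudor protein of the piRNA pathway, read 7.71, 7.71 and 7.17 against 7.001, 6.79 and 6.98 (+0.75 ± 0.09 weighted, adjusted p = 0.00867). On the lower side, EXOSC7, a subunit of the RNA exosome, read 9.54, 9.60 and 9.88 against 10.13, 9.999 and 10.27, and SNRNP35, of the minor spliceosome, read 6.28, 6.51 and 5.67 against 7.004, 7.15 and 6.95. Both passed (adjusted p = 0.0244 and 0.0244). PDCD5, linked to apoptosis, read 10.24, 10.20 and 10.92 against 10.75, 10.76 and 10.92 and passed as well (adjusted p = 0.0244). The transcription factor gene ZFHX4 stood at -0.63 ± 0.09 weighted, GATD1 at -0.41 ± 0.07 and C10orf88 at -0.51 ± 0.08. Other probe sets of ZFHX4, C10orf88 and EXOSC7 gave unweighted differences of -0.03, -0.07 and -0.01, close to 0.

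Gene lists are described by the number of tested members above and below control and by their median. Over all genes tested, 53.2% had a positive log2 fold change and the median was +0.01. Without Fk replicate 3 these were 55.9% and +0.03. In every list, 0 members passed with all arrays, and the lists were put together with earlier results of these data known. The plot of list medians shows that leaving out this array moved the lists of ERK feedback, immediate early and TGF-beta response genes most, while those of HIF targets, ribosome biogenesis and the integrated stress response moved little.

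**Figure D2:**
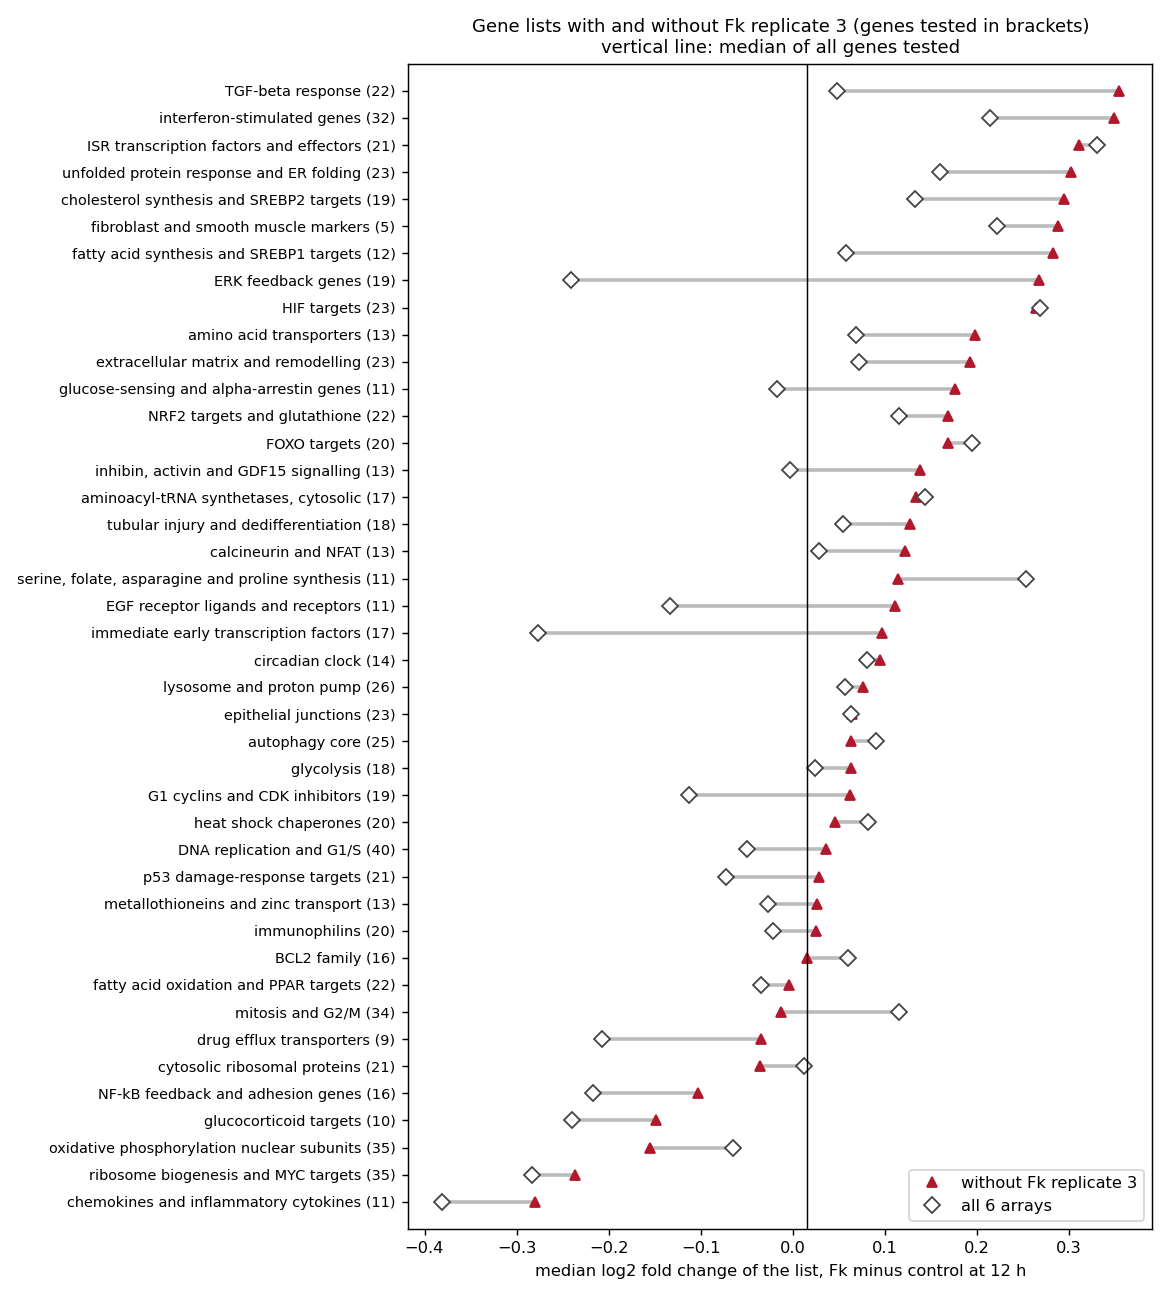
Median log2 fold change (Fk minus control at 12 h) of the 42 gene lists with at least 5 genes tested, whose number stands in brackets. Open diamonds use all 6 arrays, red triangles leave out Fk replicate 3, and the vertical line is the median of all genes tested (+0.01). ERK feedback genes move from -0.24 to +0.27, and ribosome biogenesis stays at -0.28 and -0.24.

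The list of ribosome biogenesis and MYC target genes, called ribosome biogenesis for short, had a median below the controls on each Fk array. Of 35 genes tested, 34 had a negative log2 fold change with all arrays and 34 without Fk replicate 3. The medians were -0.28 and -0.24. In 16 of the 35 all Fk arrays lay below all controls, against 6.49% of all genes, and in 0 all lay above. Against the control mean, the list median was -0.25, -0.20 and -0.21 on Fk replicates 1, 2 and 3, and within 0.02 of 0 on each control array. NOP16, a nucleolar protein and MYC target, read 10.15, 10.09 and 10.21 with Fk and 10.74, 10.79 and 10.68 with vehicle (-0.62 ± 0.16 without Fk replicate 3). NOP2, a methyltransferase of 28S ribosomal RNA, read 9.30, 9.23 and 9.45 against 9.83, 9.66 and 9.63 (-0.44 ± 0.12), and NOLC1, a chaperone of nucleolar particles, read 12.21, 12.14 and 12.25 against 12.50, 12.47 and 12.48 (-0.31 ± 0.13). In these 3 genes the Fk arrays lay close together under the controls. NOP16 (adjusted p = 0.0244) and NOP2 (adjusted p = 0.0382) passed with array weights, the 2 members of the list that did, against 0.501% of all genes. The factor MYC itself read 12.02, 11.77 and 9.33 against 12.01, 11.69 and 12.16 and stood low on Fk replicate 3 alone (-0.91 ± 0.60, or -0.06 ± 0.32 without it). Genes for the ribosomal proteins themselves, 21 tested, had medians of +0.01 and -0.04, and turned direction with the scaling of the arrays (-0.01 with arrays shifted to one median).

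Nuclear genes for oxidative phosphorylation, which supply subunits of the respiratory chain, were negative in 26 of 35 cases with all arrays and in 32 of 35 without Fk replicate 3. The medians were -0.07 and -0.15. On Fk replicate 3 the list median lay 0.06 above the control mean, and on replicates 1 and 2 it lay at -0.15 and -0.14. NDUFS3, a subunit of complex I, read 9.83, 9.92 and 10.37 with Fk and 10.09, 10.25 and 10.24 with vehicle, so that replicate 3 was above every control. SDHA, of complex II, read 10.45, 10.41 and 10.50 against 10.70, 10.86 and 10.77, with all Fk arrays below (-0.32 ± 0.17 and -0.35 ± 0.20). The separate list of fatty acid oxidation genes was positive in 10 of 22 cases (median -0.03). In it 1 member passed as lower with array weights, against 0.501% of all genes. This was ETFB, which passes electrons from fatty acid oxidation to the chain and read 9.35, 9.37 and 9.64 against 9.78, 9.68 and 9.91 (-0.42 ± 0.09, adjusted p = 0.0492).

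Integrated stress response factors and effectors were positive in 18 of 21 cases, with a median of +0.33, and in 16 of 21 without Fk replicate 3 (+0.31). In 4 of 21 all Fk arrays lay above the controls, against 9.91% of all genes. The list was uneven between replicates. Its median against the control mean was +0.59 on Fk replicate 1, -0.03 on replicate 2 and +0.83 on replicate 3, and +0.19, -0.24 and +0.02 on control replicates 1, 2 and 3. INHBE, an inhibin subunit gene and ATF4 target, read 8.18, 6.34 and 7.60 with Fk and 5.67, 2.91 and 4.32 with vehicle. Replicate 2 was the lowest in both groups, and each Fk array lay above all controls (+3.07 ± 0.65 and +2.96 ± 0.75 without Fk replicate 3). Control replicate 2 of INHBE lay under 4, so the size of this difference rests in part on a level not shown to be above background. CHAC1, which breaks down glutathione, read 7.003, 5.13 and 8.76 against 5.57, 3.77 and 5.23, and Fk replicate 2 lay under control replicates 1 and 3 (+2.11 ± 0.77 and +1.21 ± 0.62). SESN2, sestrin 2, a leucine sensor that restrains mTORC1, read 8.81, 8.34 and 9.55 against 8.29, 8.001 and 8.02 without overlap (+0.80 ± 0.30 and +0.47 ± 0.25). The transsulfuration enzyme gene CTH read 8.58, 7.62 and 10.78 against 7.66, 6.83 and 7.20 and ATF3 read 7.49, 6.39 and 10.48 against 6.58, 5.18 and 6.53, both highest on Fk replicate 3. TRIB3, a pseudokinase that feeds back on ATF4, stood at +0.43 ± 0.18 and +0.43 ± 0.20.

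Enzymes for serine, folate, asparagine and proline synthesis were positive in 9 of 11 cases (median +0.25) and in 10 of 11 without Fk replicate 3 (+0.11). PHGDH and PSPH, the enzymes that open and close the serine pathway, and MTHFD2, of mitochondrial folate metabolism, were the 3 of 11 whose arrays did not overlap, all with Fk above, against 9.91% of all genes. PHGDH read 9.35, 8.80 and 9.43 with Fk and 8.31, 7.94 and 8.66 with vehicle (+0.77 ± 0.24 without Fk replicate 3). PSPH read 10.79, 10.29 and 10.74 against 10.01, 9.94 and 9.87 (+0.60 ± 0.23). ASNS, asparagine synthetase, read 10.74, 9.35 and 11.21 against 9.44, 8.61 and 9.64, with Fk replicate 2 among the controls. For MTHFD2 a second probe set gave -0.31, or +0.22 without Fk replicate 3, against +0.42 and +0.41 for the chosen probe set. Amino acid transporters were positive in 9 of 13 cases (+0.07) and in 11 of 13 without that array (+0.20). SLC1A4, a carrier of alanine, serine and cysteine, read 9.73, 8.94 and 9.34 against 8.40, 8.22 and 8.12. Its difference was +1.09 ± 0.27, +1.09 ± 0.31 without Fk replicate 3, and +1.11 ± 0.21 with array weights (adjusted p = 0.0351), and its 3 other probe sets above 4 gave +1.09, +1.84 and +0.60. SLC1A5, a glutamine carrier, stood at +0.56 ± 0.18 and +0.56 ± 0.20, and SLC7A11, the cystine carrier, at +1.13 ± 0.50 and +1.34 ± 0.56 with overlapping arrays. Genes of the unfolded protein response and of folding in the endoplasmic reticulum were positive in 20 of 23 cases (+0.16) and in 19 of 23 without that array (+0.30). XBP1, its main transcription factor, read 10.48, 9.96 and 10.76 against 9.78, 9.35 and 9.67 (+0.80 ± 0.24 and +0.62 ± 0.24), while a second, dim probe set gave +0.16. The ER chaperone gene HSPA5 stood at +0.45 ± 0.35 and +0.53 ± 0.41, while a second, dimmer probe set gave +0.18, or -0.07 without Fk replicate 3.

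Of the glucose-sensing and alpha-arrestin genes, ARRDC3, ARRDC4, TXNIP and CHKA read above every control on all Fk arrays and MLX below. These were 4 and 1 of 11 genes, against 9.91% and 6.49% of all genes. For CHKA the gap was 0.015 and the difference +0.18, or +0.04 without Fk replicate 3, and the groups overlapped in a second probe set. In this list 5 of 11 genes were positive with all arrays and 9 of 11 without Fk replicate 3, with medians of -0.02 and +0.18. ARRDC3, an alpha-arrestin that controls receptor trafficking, read 9.40, 9.63 and 11.27 with Fk and 8.56, 8.59 and 8.58 with vehicle. The difference was +1.53 ± 0.43, or +0.94 ± 0.27 without Fk replicate 3, and it passed with array weights (adjusted p = 0.0403). TXNIP, the thioredoxin-interacting protein, read 9.59, 9.32 and 11.61 against 8.29, 8.67 and 9.18, which did not overlap, and stood at +1.46 ± 0.60 and +0.74 ± 0.47. ARRDC2 read 6.42, 6.20 and 7.93 against 6.21, 6.22 and 6.25 and stood apart on Fk replicate 3 alone. MLX, the partner of the sugar-sensing Mondo factors, read 8.49, 8.66 and 8.28 against 9.24, 8.89 and 8.83, below every control (-0.51 ± 0.20 and -0.41 ± 0.21). Other MLX probe sets above 4 gave -0.46 and -0.48, or -0.23 and -0.41 without Fk replicate 3, and in the first the groups overlapped. ARRDC3, ARRDC4 and TXNIP were all highest on Fk replicate 3.

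Interferon-stimulated genes were positive in 24 of 32 cases with all arrays (median +0.21) and in 27 of 32 without Fk replicate 3 (+0.35). In 7 of 32 the arrays did not overlap, all with Fk above, against 9.91% of all genes. The list median against the control mean was +0.34, +0.32 and +0.06 on Fk replicates 1, 2 and 3. On control replicates 1, 2 and 3 it was +0.14, -0.01 and -0.16, and the poly-A spike-ins, whose part was not tested, read 8.32, 7.44 and 7.61 on these arrays and 8.36, 8.63 and 8.66 on the Fk arrays. OASL, a 2′-5′-oligoadenylate synthetase-like protein, read 6.40, 6.27 and 5.19 with Fk and 4.74, 4.93 and 3.86 with vehicle. In both groups replicate 3 was lowest, and the difference was +1.44 ± 0.35, or +1.82 ± 0.30 without Fk replicate 3. IFI44 read 8.16, 8.06 and 8.34 against 7.18, 6.39 and 5.85 (+1.71 ± 0.48 and +1.64 ± 0.56), and HERC5, the ligase that attaches ISG15 to proteins, read 10.37, 10.10 and 9.997 against 9.85, 9.56 and 9.41 (+0.55 ± 0.15 and +0.63 ± 0.16). For these and for OASL the groups did not overlap. IFIT2, which blocks viral translation, read 9.04, 8.91 and 7.74 against 8.05, 7.71 and 6.89, and DDX60, a helicase of viral RNA sensing, read 9.64, 9.56 and 7.94 against 8.83, 8.38 and 8.05. On Fk replicate 3 IFIT2 lay among the controls and DDX60 just under them, and without it they stood at +1.42 ± 0.29 and +1.18 ± 0.24. IFIT1, of the same family as IFIT2, stood at +0.73 ± 0.38 and +1.09 ± 0.36. With array weights 4 of 32 members passed, against 0.946% of all genes: OASL (adjusted p = 0.0232), IFIT2 (0.036), DDX60 (0.0403) and HERC5 (0.0488), and IFI44 did not (0.0604).

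**Figure D3:**
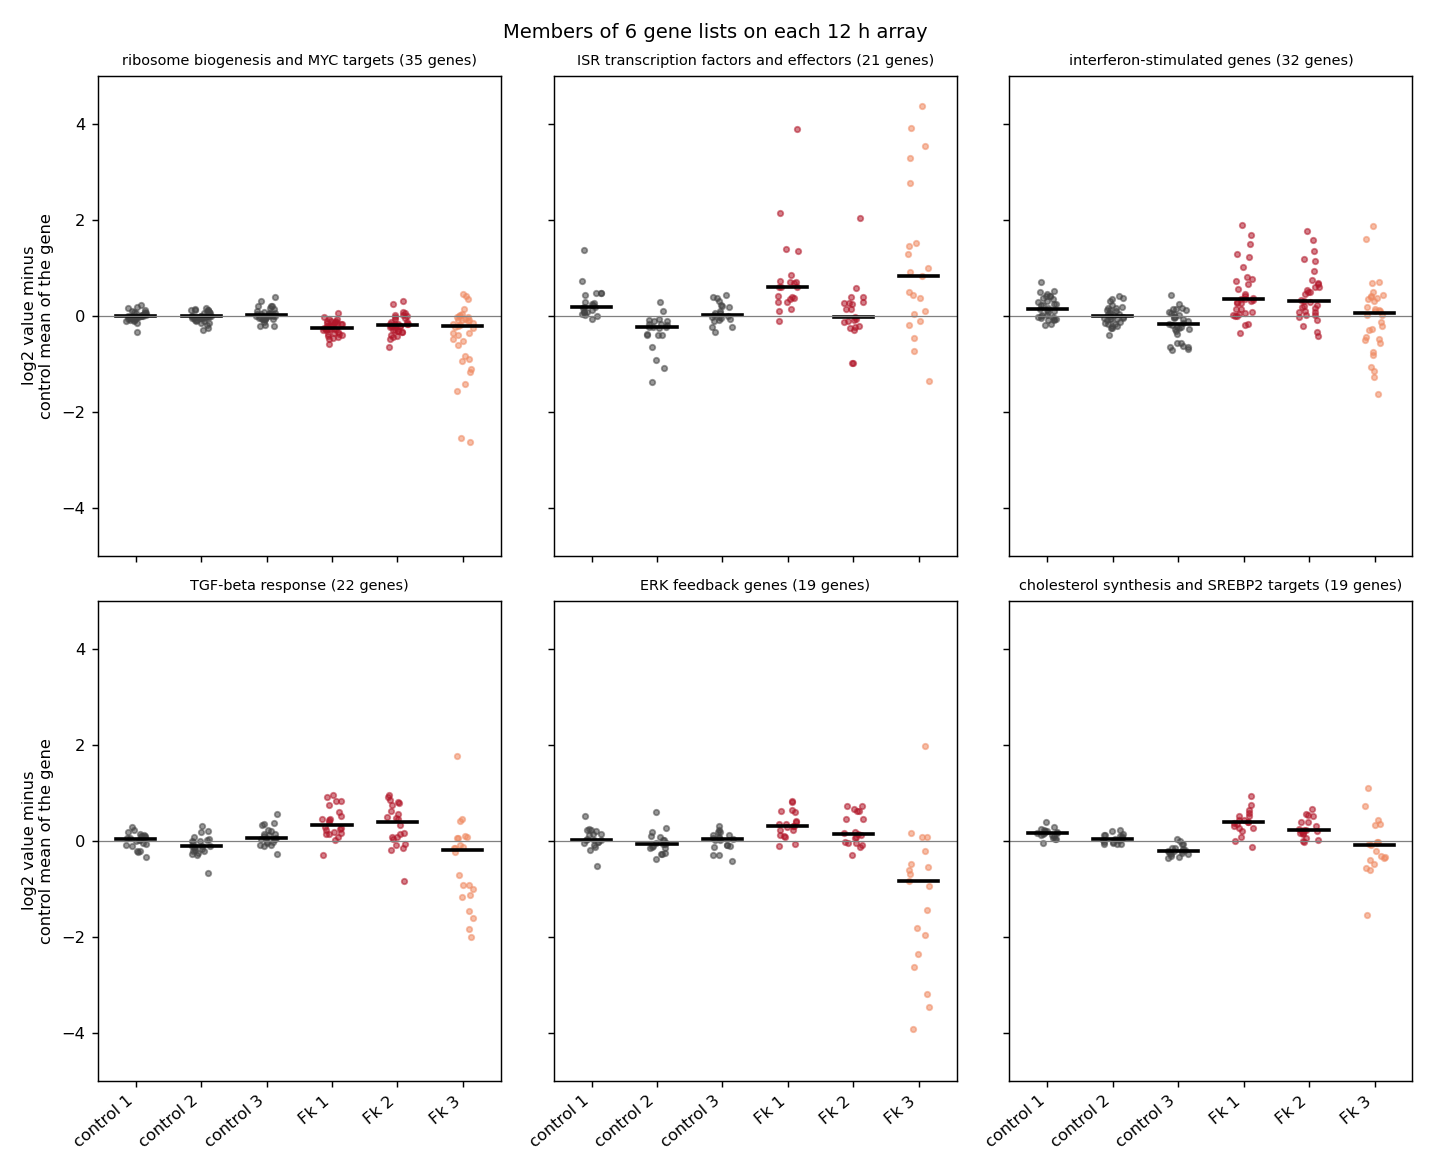
Members of 6 gene lists (ISR, integrated stress response) on each 12 h array, as the log2 value minus the mean of the 3 control arrays for that gene. Each point is 1 gene (grey: control; red: Fk replicates 1 and 2; orange: Fk replicate 3) and each bar is the median of the list on that array. Ribosome biogenesis genes centre on -0.25, -0.20 and -0.21 on the 3 Fk arrays, while ERK feedback genes centre on +0.31 and +0.13 on Fk replicates 1 and 2 and on -0.85 on replicate 3.

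Chemokines and inflammatory cytokines were negative in 10 of 11 cases with all arrays (median -0.38) and in 8 of 11 without Fk replicate 3 (-0.28). CXCL2, which attracts neutrophils, read 9.88, 9.19 and 7.19 with Fk and 10.58, 9.92 and 10.75 with vehicle, and CXCL5 read 8.52, 8.54 and 9.31 against 9.48, 9.39 and 10.01. Both lay below every control by a small gap, with differences of -1.66 ± 0.54 and -0.83 ± 0.44, or -0.88 ± 0.28 and -1.09 ± 0.47 without that array. CXCL3, a related chemokine, was highest on the outlying array and read 4.08, 4.63 and 6.50 against 5.26, 4.73 and 5.33 (-0.04 ± 0.51 and -0.75 ± 0.30). IL6 and CXCL8 were lowest on Fk replicate 3, where IL6 read 3.57, under 4. Without this array IL6 stood at -1.22 ± 0.77 and CXCL8 at -0.28 ± 0.34, and neither passed. The adhesion molecule gene VCAM1 read 5.95, 6.03 and 4.69 against 6.31, 6.31 and 7.27 (-1.07 ± 0.38 and -0.64 ± 0.31).

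Growth factor feedback genes split by array. ERK feedback genes, which growth factors such as EGF switch on, were positive in 8 of 19 cases with all arrays (median -0.24) and in 17 of 19 without Fk replicate 3 (+0.27). ETV4, an ETS factor downstream of ERK, read 7.92, 7.82 and 7.17 with Fk and 7.04, 7.03 and 7.22 with vehicle. It stood at +0.54 ± 0.20, or +0.77 ± 0.15 without replicate 3, and passed with array weights (adjusted p = 0.0244). Its relative ETV5 read 9.78, 9.61 and 8.66 against 9.37, 8.88 and 9.20, and SPRY4, which dampens receptor kinases, read 5.59, 5.40 and 2.43 against 5.01, 4.87 and 4.49. In ETV5 and SPRY4 Fk replicates 1 and 2 lay above the controls and replicate 3 below. The same held for DUSP6, the ERK phosphatase, at 12.19, 12.46 and 7.86 against 11.94, 12.06 and 11.38. EGF receptor ligands and receptors were positive in 4 of 11 cases with all arrays (median -0.13) and in 7 of 11 without Fk replicate 3 (+0.11). On all Fk arrays 2 members lay above every control and 1 below, against 9.91% and 6.49% of all genes. Of these, ERBB2, a receptor of the EGF receptor family, read 7.80, 7.89 and 7.42 against 7.33, 7.12 and 7.23, above every control on all 3 arrays, and passed with array weights (+0.58 ± 0.09, adjusted p = 0.0244). Immediate early transcription factors were positive in 5 of 17 cases with all arrays (-0.28) and in 12 of 17 without that array (+0.10).

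TGF-beta response genes were positive in 13 of 22 cases with all arrays (median +0.05) and in 19 of 22 without Fk replicate 3 (+0.35). SKIL, a co-repressor that limits SMAD signalling, read 10.13, 10.25 and 7.47 with Fk and 9.19, 9.37 and 9.35 with vehicle. Replicates 1 and 2 lay above the controls and replicate 3 well below, and the difference was -0.02 ± 0.57 with all arrays and +0.88 ± 0.14 without the third (adjusted p = 0.239). Its 2 other probe sets above 4 gave +0.57 and +0.55 without that array. TGFB1, the ligand, read 9.88, 9.90 and 8.91 against 8.71, 9.03 and 9.40 (+0.52 ± 0.31 and +0.85 ± 0.27), and SMAD6, an inhibitory SMAD, read 7.03, 7.51 and 5.68 against 6.61, 6.62 and 6.56 (+0.14 ± 0.38 and +0.67 ± 0.23). COL1A1, a chain of type I collagen, read 8.64, 8.88 and 8.21 against 8.18, 8.12 and 8.09, with a gap of 0.03. It passed with array weights (+0.59 ± 0.10, adjusted p = 0.0271). Other COL1A1 probe sets above 4 gave +0.13 and +0.42, and in these the groups overlapped. COL1A1 is also 1 of the 5 fibroblast and smooth muscle markers tested, out of 12 on the array. Their summed level was 11.51 to 11.63 on the Fk arrays and 11.21 to 11.54 on the controls, and its part in the result was not tested. LTBP3, which anchors latent TGF-beta, stood at +0.33 ± 0.20 and +0.54 ± 0.17, while 2 dimmer probe sets gave -0.09 and +0.0017.

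HIF targets, which low oxygen switches on, were positive in 18 of 23 cases (median +0.27) and in 19 of 23 without Fk replicate 3 (+0.26). In 5 of 23 the Fk arrays all lay above the controls, against 9.91% of all genes. ERO1A, an oxidase of the endoplasmic reticulum, read 11.21, 11.40 and 11.45 with Fk and 10.99, 11.03 and 10.98 with vehicle (+0.35 ± 0.12 and +0.30 ± 0.13), though its 2 other probe sets gave -0.19 and +0.24. PDK1, which holds back pyruvate oxidation, read 8.52, 8.77 and 8.68 against 8.32, 8.02 and 8.37. PFKFB4, a regulator of glycolysis, read 6.35, 6.75 and 5.49 against 6.06, 5.44 and 5.17 and CA12, a carbonic anhydrase, 7.39, 8.12 and 6.29 against 7.20, 6.88 and 6.53. In both Fk replicate 3 lay among or under the controls, and without it they stood at +0.99 ± 0.33 and +0.89 ± 0.27. Glycolysis genes themselves had medians of +0.02 and +0.06, and the glucose transporter gene SLC2A1, a member of that list too, read 7.83, 7.75 and 8.13 against 8.25, 7.83 and 8.08.

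Cholesterol synthesis genes were positive in 17 of 19 cases with all arrays (median +0.13) and in 17 of 19 without Fk replicate 3 (+0.29). Against the control mean the list median was +0.39, +0.22 and -0.09 on Fk replicates 1, 2 and 3, and +0.16, +0.04 and -0.21 on control replicates 1, 2 and 3. DHCR7, which makes cholesterol in the last step of its pathway, read 11.05, 10.94 and 10.51 with Fk and 10.74, 10.60 and 10.30 with vehicle, and MVD, of the mevalonate pathway, read 7.61, 7.69 and 6.97 against 7.32, 6.98 and 6.82. In both genes replicate 3 was the lowest of its group, and MVD stood at +0.39 ± 0.26 and +0.61 ± 0.25. The sterol carrier gene STARD4 read 10.74, 10.37 and 8.27 against 10.22, 9.79 and 9.45, highest on Fk replicate 1 and lowest on Fk replicate 3. The part of this shared drop on replicate 3 in the list median was not tested. Fatty acid synthesis genes were positive in 7 of 12 cases (+0.06) and in 11 of 12 without that array (+0.28), but the median was -0.02 when probe sets of a gene were averaged. Of these 12, LPIN1, a phosphatidate phosphatase, alone had all Fk arrays above control, against 9.91% of all genes, at 10.72, 10.26 and 10.32 against 10.08, 9.71 and 9.75 (+0.59 ± 0.30 and +0.65 ± 0.34).

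FOXO targets were positive in 14 of 20 cases (median +0.19) and in 14 of 20 without Fk replicate 3 (+0.17), and in 6 of 20 all Fk arrays lay above the controls, against 9.91% of all genes. CCNG2, a cyclin that rises in growth arrest, read 11.50, 11.49 and 12.17 with Fk and 10.82, 10.76 and 10.83 with vehicle. The arrays of a group lay close together, apart from the higher Fk replicate 3, and the difference was +0.91 ± 0.19 or +0.69 ± 0.15 (adjusted p = 0.0244 with array weights). CDKN1B, the inhibitor p27, read 10.41, 10.59 and 11.53 against 10.10, 10.27 and 10.12 (+0.68 ± 0.25 and +0.34 ± 0.15), and CAT, catalase, 10.29, 10.07 and 10.14 against 9.82, 9.38 and 9.76 (+0.51 ± 0.23 and +0.53 ± 0.26). In contrast CDKN1C, the inhibitor p57, read 7.13, 7.67 and 6.46 against 8.34, 8.45 and 8.07 (-1.20 ± 0.26 and -0.89 ± 0.19), and its 3 other probe sets above 4 gave -0.61, -0.48 and -0.44. CDKN1C passed with array weights (adjusted p = 0.0248). DNA replication genes, 40 tested, had medians of -0.05 and +0.04. Mitosis genes were positive in 28 of 34 cases with all arrays and in 16 of 34 without Fk replicate 3 (+0.12 and -0.01).

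Heat shock chaperones were positive in 12 of 20 cases (median +0.08) and in 13 of 20 without Fk replicate 3 (+0.05). All Fk arrays lay above the controls in 5 of 20 and below in 1, against 9.91% and 6.49% of all genes. NRF2 targets and glutathione genes were positive in 17 of 22 cases (+0.11), with 5 members above every control and 1 below. For lysosome and proton pump genes these were 17 of 26 (+0.06), 4 and 1. HSPA4L, a heat shock protein of the Hsp110 family, read 9.55, 9.40 and 10.99 with Fk and 8.95, 8.88 and 9.04 with vehicle (+1.03 ± 0.33 and +0.52 ± 0.11), and its second probe set gave +0.34. The co-chaperone genes DNAJB4 and BAG3 stood at +0.70 ± 0.23 and +0.66 ± 0.28, or +0.41 ± 0.15 and +0.26 ± 0.15. All 3 were highest on Fk replicate 3. NFE2L2, the antioxidant factor NRF2, read 11.55, 11.57 and 11.77 against 11.18, 10.99 and 11.13 (+0.53 ± 0.15 and +0.45 ± 0.16), but a second probe set above 4 gave -0.01. The lysosomal protease genes CTSB and CTSZ stood at +0.59 ± 0.17 and +0.65 ± 0.25, or +0.43 ± 0.15 and +0.58 ± 0.29, while the proton pump subunit gene ATP6V1D stood at -0.25 ± 0.12 and -0.34 ± 0.11. For CTSB, the 4 other probe sets gave +0.55, +0.25, +0.00024 and +0.33. TSC22D3, a glucocorticoid-induced leucine zipper protein, read 8.96, 8.56 and 10.05 against 8.08, 7.88 and 8.25 (+1.12 ± 0.36 and +0.69 ± 0.27), and a second probe set gave +0.33, whereas the list of glucocorticoid targets was positive in 2 of 10 cases (-0.24). Hydrocortisone was in the medium of both groups. JUP, plakoglobin, a protein of desmosomes, read 9.35, 9.33 and 9.24 against 8.94, 8.85 and 8.91 and passed with array weights (+0.44 ± 0.08, adjusted p = 0.0351).

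Immunophilins, the FKBP and cyclophilin folding enzymes that bind immunosuppressants, were positive in 10 of 20 cases with all arrays and in 11 of 20 without Fk replicate 3 (medians -0.02 and +0.02). FKBP1A, the main FK506-binding protein, read 13.39, 13.33 and 12.79 with Fk and 12.96, 13.17 and 12.96 with vehicle (+0.14 ± 0.17 and +0.33 ± 0.13), and its 3 other probe sets gave +0.05, -0.02 and +0.28. FKBP10, a collagen chaperone, stood at +0.39 ± 0.19 and +0.46 ± 0.21. Calcineurin and NFAT genes were positive in 7 of 13 and 11 of 13 cases (+0.03 and +0.12). PPP3R1, the regulatory subunit of calcineurin, read 6.15, 6.32 and 6.05 against 5.72, 5.67 and 5.36 without overlap, and a second probe set gave +0.24. RCAN1, a calcineurin inhibitor and NFAT target, read 8.37, 8.10 and 8.57 against 7.98, 7.83 and 8.07 (+0.39 ± 0.36 and +0.28 ± 0.41), and a dimmer probe set gave +0.02. In the monocarboxylate transporter family SLC16A4, SLC16A5, SLC16A7 and SLC16A14 were tested. All Fk arrays lay above the controls in 2 of these 4, SLC16A4 (+0.46 ± 0.24 and +0.62 ± 0.26) and SLC16A14, against 9.91% of all genes. SLC16A14 entered the test only through Fk arrays. SLC16A7, a pyruvate carrier, stood at -0.65 ± 0.39 and -0.15 ± 0.27, while its 3 other probe sets above 4 gave -0.53, -1.54 and -0.57, or +0.03, -0.98 and -0.04 without Fk replicate 3. Of 13 inhibin, activin and GDF15 signalling genes, 6 and 10 were positive, and INHBE was the only 1 with all Fk arrays above control, a share below the 9.91% of all genes. INHBA, the activin A subunit gene, stood at -0.995 ± 0.80 and -0.74 ± 0.91. Drug efflux and carrier genes were positive in 0 of 9 cases with all arrays and in 3 of 9 without Fk replicate 3. ABCB1, P-glycoprotein, read 9.63, 9.76 and 9.46 against 10.01, 9.92 and 9.95 (-0.35 ± 0.15 and -0.27 ± 0.16), and SLC22A5, a carnitine carrier, stood at -0.18 ± 0.28 and -0.57 ± 0.15.

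On Fk replicate 3 the genes farthest from the other Fk arrays were read against the mean of replicates 1 and 2. NR4A2, an early response receptor, lay +4.61 away, CIART, a repressor of the circadian clock, +4.50, and DEPDC7 +3.998. On the lower side VMP1, of autophagosome formation, lay -5.49 away and PPP1R3B, a glycogen-targeting subunit, -4.82. ZFP36L1, which destabilises messenger RNA, read 12.68, 12.57 and 7.63 on the Fk arrays and 12.68, 12.45 and 12.56 with vehicle. VMP1 read 9.34, 9.49 and 3.93 with Fk and 9.77, 9.88 and 9.29 with vehicle, so replicates 1 and 2 lay within 1 log2 unit of every control. SLC16A14 (+3.95) had the fifth largest positive deviation, so the array that stood away also held the highest value of the gene with the widest gap.

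The 48 h arrays, with their own 3 Fk and 3 control cultures, give the same comparison at a later time. Of the 30 genes with a gap of at least 0.5 and Fk above at 12 h, 20 had the same sign at 48 h (66.7%), and 4 were again without overlap in that direction, where 6.14% of all genes were. Of the 8 with Fk below, 7 had the same sign and 2 were again without overlap, where 4.02% of all genes were. Over all genes tested 55.8% had the same sign at both times. SLC16A14 read 5.23, 4.99 and 5.29 with Fk and 2.50, 2.32 and 2.61 with vehicle at 48 h (+2.69), and SLC44A2 read 9.39, 8.76 and 9.01 against 8.07, 8.25 and 7.54 (+1.10). ZBED2 was -2.45 at 48 h against -1.18 at 12 h, and ZBED10P -1.40 against -1.11. The others of this kind were EVC and FCHO2. ARRDC4 read 2.76 to 2.80 on all 48 h arrays, and INHBE had a difference of -0.21 there, at 11.11 to 12.29 on both sides.

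**Figure D4:**
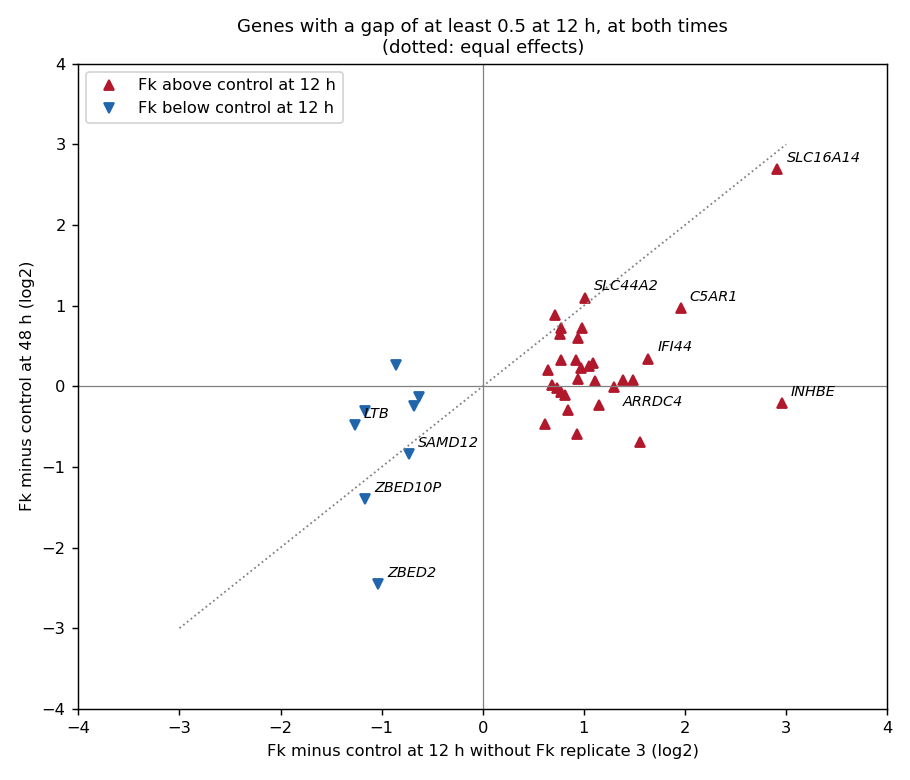
Log2 fold change at 48 h (vertical) against that at 12 h without Fk replicate 3 (horizontal) for the 30 and 8 genes with a gap of at least 0.5 at 12 h. Red triangles had Fk above control at 12 h and blue triangles Fk below, and the dotted line marks equal effects. SLC16A14 lies near the line at +2.91 and +2.69, INHBE lies at +2.96 and -0.21, and ZBED2 at -1.03 and -2.45.

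The test of the difference between the effects, 12 h minus 48 h, called 0 genes by limma with all arrays (percent called 0), with 357 (3.31%) at an unadjusted p under 0.05. Without Fk replicate 3 it also called 0, with 474 (4.4%) at an unadjusted p under 0.05, and ARRDC4, which reached 4 on no array other than the Fk arrays of 12 h, stood at +1.30 ± 0.15 (adjusted p = 0.0746). SLC2A1 stood at -0.15 at 12 h and +0.98 at 48 h, a difference of -1.14 ± 0.20 that did not pass (adjusted p = 0.996). JUP stood at +0.41 and -0.38, a difference of +0.80 ± 0.17 (adjusted p = 0.996). PSPH, XBP1, OASL and HERC5 had differences of +0.99 ± 0.29, +1.01 ± 0.34, +1.65 ± 0.50 and +0.67 ± 0.22, and none of these passed. Among lists, cholesterol synthesis had a median of +0.13 at 12 h and -0.43 at 48 h, where 1 of 19 genes was positive, and fatty acid synthesis +0.06 and -0.13. Ribosome biogenesis went from -0.28 to +0.01 and interferon-stimulated genes from +0.21 to -0.10. TGF-beta response genes had a median of +0.31 at 48 h and HIF targets +0.27. A difference between list medians was not tested.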

How the data were processed

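RNA of HK-2 cells was hybridised to Affymetrix arrays, 1 per culture. The values are the authors' deposited log2 values, normalized with GCRMA per the submitters' processing notes. Of 54675 probe sets, 41097 carry 1 gene symbol, 1801 several and 11777 none in the platform annotation, and those with 1 gave 19775 genes. With R 4.3.3, limma 3.58.1 fitted a mean for each of 4 groups over all 12 arrays, with empirical Bayes and Benjamini-Hochberg adjustment over the 10784 genes tested. The script was tested on simulated data first. The same fit without Fk replicate 3 at 12 h, and with array weights, stands beside it. Named genes are those with the widest gaps between groups, those leading the weighted fit, those deviating most on Fk replicate 3, and members of gene lists whose arrays did not overlap or whose list is described. Members and lists were chosen with earlier results of these data known. Genes also named for their role in a list, such as MYC and HSPA5, were chosen after their values were seen. Deviations of arrays with the same replicate number correlated at 0.04, 0.27 and 0.16, so the numbers were not taken as pairs. Precision is limited by how few arrays there are, and the median interval of a log2 fold change at a level of 0.95 was ± 0.45, or ± 0.41 without Fk replicate 3. Promoter windows come from RefSeq's GRCh38.p14 and are matched by symbol. Windows on chr8 were not used for list members, while no chromosome was left out of the count of all windows. Alternatives tried were the filter, the choice of probe sets, scaling, the variance model, array weights, a replicate block and leaving out each array.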

Additional observations from a re-analysis of the deposited data

Results flagged for a closer look

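In 3 genes named in the report the Fk arrays lay wholly on one side of the controls at 12 h and wholly on the other side at 48 h. Over all genes tested this was so for 44 of 10784. CXCL2 read 10.53, 11.03 and 11.11 with Fk and 10.21, 10.34 and 10.34 with vehicle at 48 h, above every control, where it had been below at 12 h. The effect at 12 h minus that at 48 h was -2.26 (adjusted p = 0.996). VCAM1 read 5.48, 5.50 and 6.05 against 5.16, 4.58 and 5.09 at 48 h, and the difference of its effects was -1.81 (adjusted p = 0.996). JUP went the other way, at 8.58, 8.63 and 8.66 against 8.76, 9.16 and 9.10, with a difference of +0.80 (adjusted p = 0.996). None of these differences passed in limma. Without Fk replicate 3 at 12 h they were -1.48 ± 0.38, -1.38 ± 0.42 and +0.83 ± 0.17.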

How the results depend on the processing

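With all arrays, 0 genes were called at 12 h under every filter, probe set rule, scaling and variance model tried. The exceptions were array weights (156), a replicate block within time (1, INHBE at +3.07, adjusted p = 0.0149 in limma) and an unadjusted p under 0.05 (724), and leaving out 1 array in turn gave 0 to 3. Without Fk replicate 3 the 3 calls became 8 with no filter, 1 without probe sets that may match several transcripts (where SLC16A14 and ANKRA2 were not measured), 160 with array weights, 1 with 12 h arrays alone, 0 with those and the replicate block, and 849 at an unadjusted p under 0.05. With the replicate block over all arrays there were 3, where ANKRA2 was lost (adjusted p = 0.202) and INHBE gained (adjusted p = 0.0445). Leaving out another array gave 1 to 3. The difference between 12 h and 48 h gave 0 calls in each alternative, the replicate block included. Genes with Fk above control without overlap numbered 1404 to 2335 when 1 array was left out, and those below 929 to 1668, both highest without Fk replicate 3. With arrays shifted to one median they were 896 and 877, against 1069 and 700. Of the 30 and 8 genes with a gap of at least 0.5, 18 and 5 were left when probe sets were averaged. A gap of 0.25 gave 137 and 67, a gap of 1 gave 5 and 0, and leaving out 1 array gave 41 to 83 and 13 to 44.

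Of 112 named genes, 100 kept the direction of their 12 h fold change in every alternative. The array weights turned DUSP6 to +0.37, SKIL to +0.82, SPRY4 to +0.60 and STARD4 to +0.63. Averaging probe sets turned SKIL to +0.18 and SMAD6 to -0.0042. Without probe sets that may match several transcripts, ERO1A stood at -0.19, ETV5 at -0.22 and LTBP3 at -0.088. Leaving out 1 array turned the direction of CA12 (-0.030 to +0.89), CXCL3 (-0.75 to +0.46), DUSP6 (-1.77 to +0.53), ETV5 (-0.017 to +0.54), SKIL (-0.51 to +0.88), SLC22A5 (-0.57 to +0.038), SMAD6 (-0.25 to +0.67), SPRY4 (-0.87 to +0.71), STARD4 (-0.50 to +0.74) and ZFP36L1 (-2.47 to +0.060). Of the 42 lists with at least 5 genes tested, 21 kept the sign of their median in each alternative. The cause of these shifts was not tested. Values under 4 were not taken as above background, which limits what the fold change of SLC16A14 or ARRDC4 says of its size.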
